A study of Mus musculus with 17 samples.

Results

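The genes described here encode leukocyte surface proteins that are held in the membrane by a glycosylphosphatidylinositol (GPI) anchor, leaving aside the antigens used for sorting and the complement regulators. The set was a list of 10 gene symbols, Ly6a, Ly6e, Ly6d, Plaur, Cd14, Sema7a, Bst1, Bst2, Cd52 and Prnp, and every probe set whose only annotated symbol was one of them was taken. This found 13 probe sets for 9 of the genes. Ly6a has no such probe set in the annotation used here and was not analysed. The 9 genes were all among the 14245 genes tested, and 12 of their 13 probe sets passed the filter on dim values.

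A GPI anchor is a glycolipid that is built in the endoplasmic reticulum and attached to the end of a protein in place of a membrane-spanning segment. The product of Piga catalyses the first step of this synthesis, so cells that lose the gene cannot display GPI-anchored proteins. In paroxysmal nocturnal haemoglobinuria, blood cells arise from a stem cell that has lost this gene. Arrays measure mRNA and do not show whether a protein reached the surface.

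Sorted mouse bone marrow cells of 5 groups were measured on 17 arrays in 2 batches. Batch 1 held GPI- and GPI+ cells from mice with the Pig-a knock-out, with 3 arrays each. Batch 2 held GPI- cells of C57BL/6 recipients of knock-out marrow (knock-out graft, 4 arrays), GPI+ cells of C57BL/6 recipients of wild-type marrow (wild-type graft, 3 arrays) and GPI+ cells of wild-type C57BL/6 mice (4 arrays). Fractions were sorted with fluorescent antibodies to the GPI-anchored markers CD24, CD48 and Gr-1. Per the labels, donor knock-out marrow was kept for 30 minutes with 10 nM aerolysin, a toxin that lyses cells with GPI-anchored proteins, and recipients were irradiated with 9 Gy. The labels give these treatments for knock-out grafts and are silent on the wild-type grafts, so GPI status, donor genotype and treatment cannot be told apart between the recipients. What drives the deletion, and the age of the mice, are not stated in the sources used here. The titles call the arrays biological replicates and name no animal, so a p-value reflects array-to-array spread, which may be technical.

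Levels are given as log2 units above the median of all probe sets on the same array, so 1 unit is a doubling if the deposited scale is log10, which was read from the values. The batches were normalized separately, and each difference was taken within a batch. Piga, the targeted gene, was at 0.31 ± 0.15 in knock-out GPI- cells and 2.35 ± 0.29 in knock-out GPI+ cells (SD, n = 3 each). It was at -0.92 ± 0.30 (n = 4) in knock-out graft cells, 2.70 ± 0.11 (n = 3) in wild-type graft cells and 2.77 ± 0.10 (n = 4) in wild-type cells. Neutrophil granule genes, which mark marrow, averaged 6.75 to 8.08 on every array. Technical measures also differed between the groups of both batches. The 3' minus 5' signal of Gapdh was -0.16 ± 0.13 in knock-out GPI- and -1.02 ± 0.02 in knock-out GPI+ samples, and the spiked hybridisation controls were at 7.09 ± 0.32 in knock-out GPI- and 5.27 ± 0.23 in knock-out GPI+ samples. The slope of these controls on log10 concentration was 0.96 ± 0.07 in knock-out GPI- and 1.15 ± 0.01 in knock-out GPI+ samples. In batch 2 that slope was 1.26 ± 0.03 in wild-type, 1.19 ± 0.01 in knock-out graft and 1.17 ± 0.02 in wild-type graft samples. The Gapdh measure was -0.93 ± 0.05, -0.68 ± 0.30 and -0.63 ± 0.22 in the same order, and the control level 5.83 ± 0.37, 6.20 ± 0.20 and 6.12 ± 0.13. The 3 knock-out GPI+ arrays lay close together, with a median SD over genes of 0.0955 against 0.199 in knock-out GPI- cells. The part of these measures in the results was not tested.

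Promoter sequence from RefSeq (build GRCm38.p6) was at hand for 4 of the genes, Bst2, Plaur, Prnp and Sema7a. The 250 bases before the annotated start are shown for Bst2 and Plaur, which had the largest rise and the largest fall of the set in the knock-out. Capitals mark every match to the core of the interferon-stimulated response element (GAAA, any 2 bases, GAAA), to TTCNNNGAA (the core of the gamma-activated site) or to TGANTCA (the AP-1 site), which were searched on both strands of the window from 250 bases before to 50 after the start.
Bst2, chr8:71537473-71537722, minus strand: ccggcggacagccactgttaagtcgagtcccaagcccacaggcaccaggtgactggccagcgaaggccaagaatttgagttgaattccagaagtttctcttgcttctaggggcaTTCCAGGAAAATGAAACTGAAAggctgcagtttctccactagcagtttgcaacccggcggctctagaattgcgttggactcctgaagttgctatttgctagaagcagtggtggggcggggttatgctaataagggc
Plaur, chr7:24462233-24462482, plus strand: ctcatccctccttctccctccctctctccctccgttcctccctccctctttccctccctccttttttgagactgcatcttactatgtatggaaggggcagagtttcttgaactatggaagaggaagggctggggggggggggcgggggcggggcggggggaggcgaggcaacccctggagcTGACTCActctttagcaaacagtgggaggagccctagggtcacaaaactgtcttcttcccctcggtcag
In Bst2 the capitals hold a gamma-activated site core from -136 to -128 and overlapping response element cores from -130 to -121 and from -124 to -115. The response element core occurs in 3.44% of 32851 promoter windows and in 1 of these 4, the gamma-activated core in 8.30% and in 1 of 4. The AP-1 letters, at -69 to -63 in Plaur and at -102 to -96 in Prnp, occur in 7.81%. These are matches of letters and not measured binding, and the motifs were chosen with the expression results known.

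In Pig-a knock-out marrow the genes split into a rising and a falling group. Bst2, Ly6d and Ly6e were higher in GPI- than in GPI+ cells, and Plaur, Bst1, Cd52, Cd14 and Sema7a were lower, so 8 of 9 passed an adjusted p of 0.05. Among all genes 29.5% passed, 14.8% higher and 14.8% lower. The median absolute log2 difference was 0.86 over the 9 genes and 0.25 over all genes, and the signed medians were -0.46 and -0.01. The members were chosen with earlier results of these data known, so setting them beside all genes does not test the set. For 8 of the 9 genes no GPI- array overlapped a GPI+ array, which held for 43.2% of all genes. With 3 arrays against 3, an exact two-sided permutation test of 1 gene cannot go below p = 0.1, so the calls rest on the spread shared across genes and groups in limma.

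Fewer of the genes passed between the transplanted groups. Bst2, Cd14 and Ly6e were higher in knock-out graft than in wild-type graft cells, and no gene of the set passed as lower. Of all genes 7.39% passed, 3.95% higher and 3.45% lower. The groups did not overlap for 4 of the 9 genes, the 3 called ones and Prnp, and for 15.5% of all genes. Against wild-type cells, Bst2 and Cd14 were again higher in knock-out graft cells and Prnp was lower. Of all genes 12.4% passed, 6.84% higher and 5.55% lower, and the groups did not overlap for these 3 genes and for 16.4% of all genes. These comparisons share the knock-out graft arrays. Between wild-type graft and wild-type cells none of the 9 genes passed in limma's fit, where 0.842% of all genes did, 0.449% higher and 0.393% lower. At an unadjusted p under 0.05, 5 of the 9 were lower in wild-type graft cells and 0 were higher, against 6.00% and 8.15% of all genes.

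**Figure D1:**
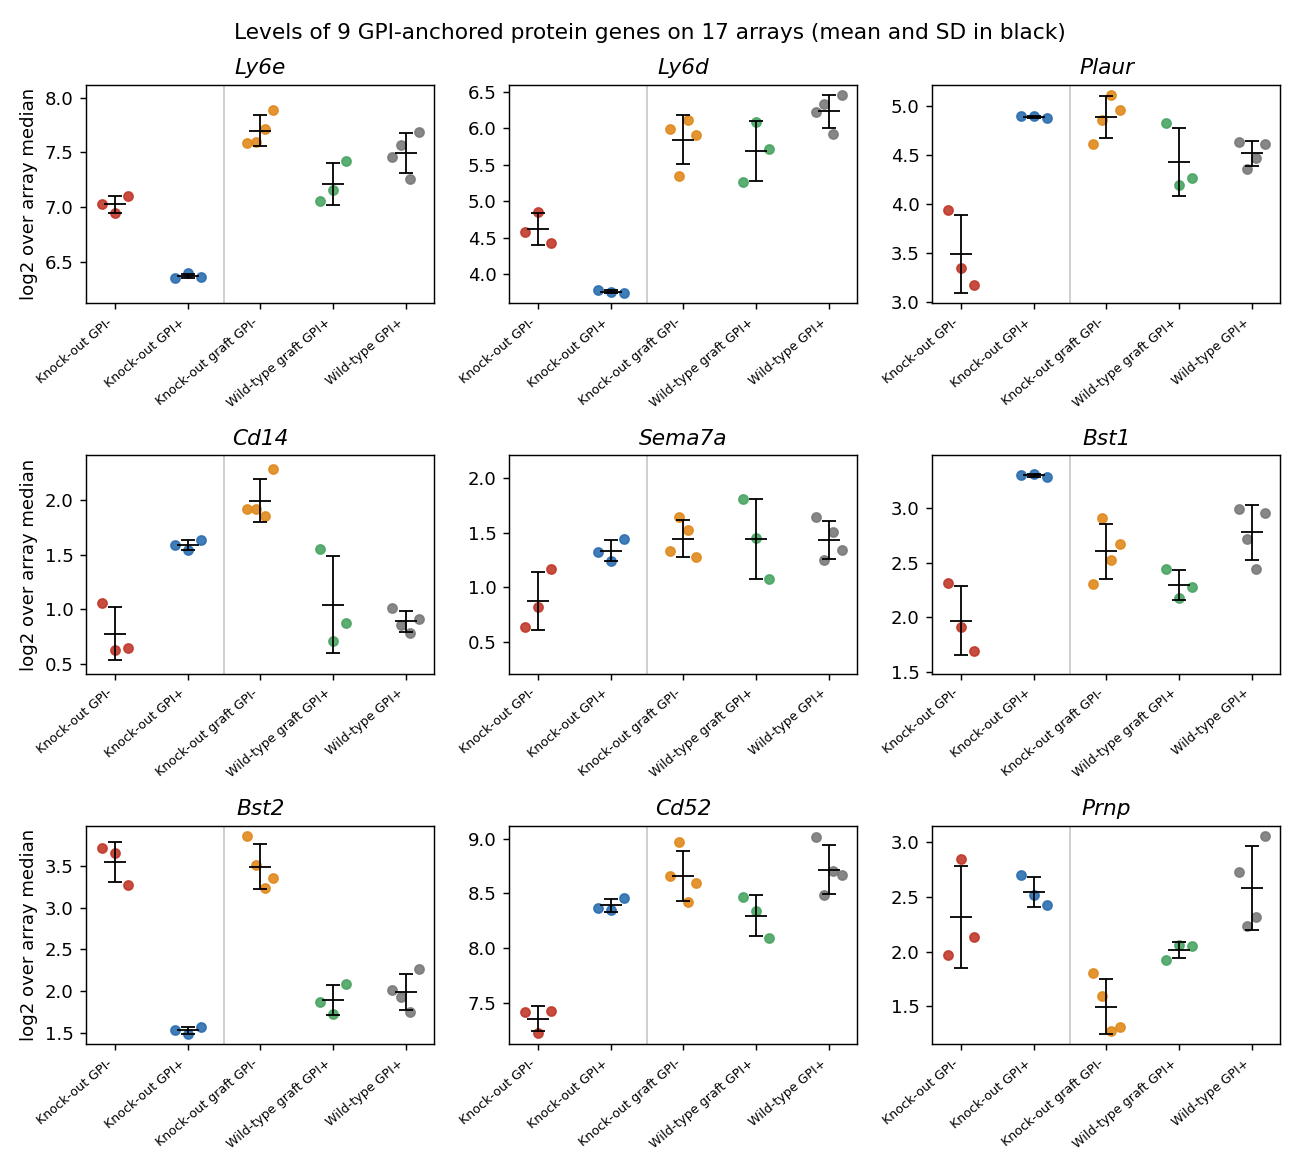
Level of each gene (log2 units above the array median, vertical axis) by group on the probe set that stands for the gene, 1 point per array, with the group mean and SD in black. The grey line parts batch 1 from batch 2. Bst2 was high in both GPI- groups, while Plaur, Cd14, Bst1 and Cd52 were low in knock-out GPI- cells and not in knock-out graft cells.

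**Figure D2:**
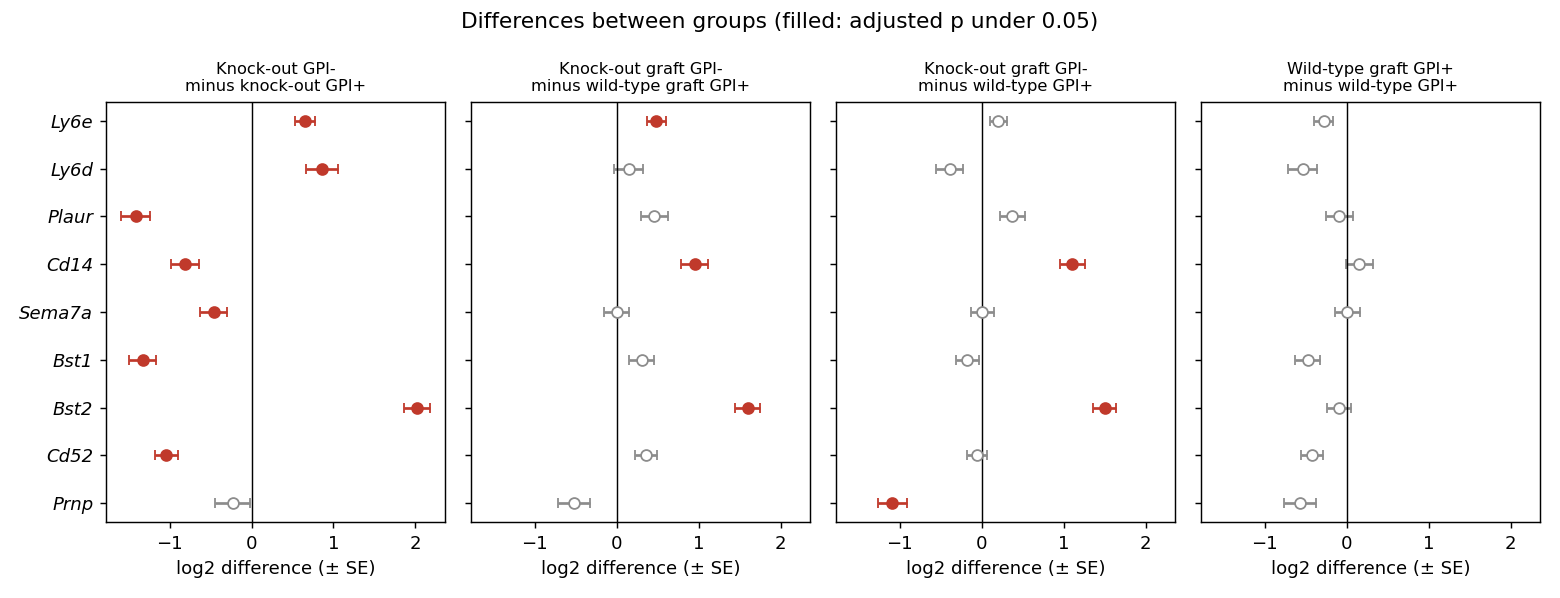
Log2 difference with its SE for the 9 genes in 4 comparisons. Filled red points passed an adjusted p of 0.05, which 8, 3, 3 and 0 genes did from left to right.

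Bst2 had the largest rise of the set in each comparison with GPI- cells. It encodes tetherin (BST-2), a protein with both a membrane-spanning segment and a GPI anchor that holds budding enveloped viruses at the cell surface. In mouse marrow it is also known as an antigen of plasmacytoid dendritic cells, and interferon induces it. Bst2 was at 3.71, 3.65 and 3.28 in knock-out GPI- cells, against 1.54, 1.48 and 1.57 in knock-out GPI+ cells. All GPI- arrays were above all GPI+ arrays, 4.05-fold on average (log2 2.02 ± 0.16 SE, adjusted p = 5.6e-09). It was at 3.86, 3.52, 3.24 and 3.35 in knock-out graft cells, against 1.87, 1.73 and 2.09 in wild-type graft cells and 2.02, 1.93, 1.75 and 2.27 in wild-type cells. The knock-out graft arrays lay above all others of their batch, 3.02-fold above the wild-type graft (1.60 ± 0.15, adjusted p = 9.0e-07) and 2.83-fold above wild type (1.50 ± 0.14, adjusted p = 4.6e-07). Wild-type graft and wild-type arrays overlapped (-0.10 ± 0.15, adjusted p = 0.83). The rise in the knock-out exceeded that between the recipients by 0.42 ± 0.22, which did not pass (adjusted p = 0.19).

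Marker genes of plasmacytoid dendritic cells, and also those of T and NK cells, moved with Bst2 between GPI- and GPI+ cells. Of 20 T and NK cell genes, 19 rose in the knock-out, 17 between the recipients and 17 in knock-out graft against wild-type cells. There 0 fell, and in wild-type graft against wild-type cells 0 passed. Of 11 genes listed for plasmacytoid dendritic cells, 8 rose and 0 fell in knock-out GPI- cells, and 8 rose and 0 fell in knock-out graft against wild-type graft cells. In knock-out graft against wild-type cells 6 rose and 1 fell. In wild-type graft against wild-type cells 0 rose and 2 fell, and there the Bst2 arrays overlapped. The mean of that list was 2.53 to 2.68 in knock-out GPI- and 1.33 to 1.36 in knock-out GPI+ cells. It was 2.23 to 2.75 in knock-out graft, 1.45 to 1.59 in wild-type graft and 1.87 to 2.03 in wild-type cells. Every gene of that list was above the 40th percentile of its array on at least 1 array of each group. Siglech, a surface receptor of these cells, rose by 2.32 and 2.23 on the log2 scale in the same 2 comparisons. Of 22 interferon-stimulated genes, 3 rose and 4 fell in the knock-out, and 10 rose and 0 fell between the recipients. Against wild-type cells 2 rose and 2 fell in knock-out graft cells, and 0 rose and 4 fell in wild-type graft cells. That list averaged 1.92 to 2.11 in knock-out GPI- and 1.95 to 2.01 in knock-out GPI+ cells. Its range was 2.32 to 2.74 in knock-out graft, 2.04 to 2.25 in wild-type graft and 2.42 to 2.82 in wild-type cells. Over the 17 arrays, after subtraction of each batch's mean, the genes most like Bst2 were Cox6a2 (r = 0.98), Ms4a4b (0.98) and Ccl5 (0.98). Group means were not subtracted, so these r values, and those given below, also hold the differences between groups. Cox6a2 is on the plasmacytoid dendritic cell list, and Ccl5 encodes a chemokine of T and NK cells. In such bulk samples fewer cells of a type and less RNA per cell cannot be told apart, and the part of these cell types in the Bst2 result was not tested.

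**Figure D3:**
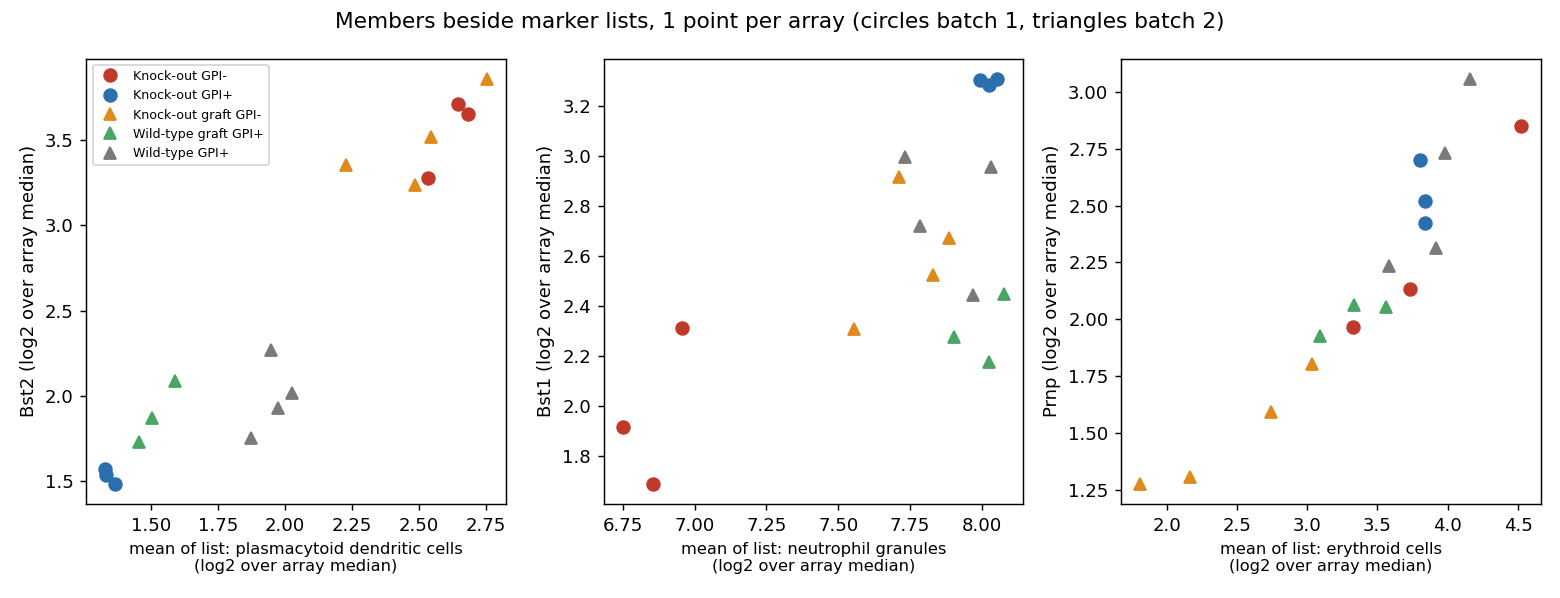
Level of Bst2, Bst1 and Prnp (vertical axes) against the mean level of a marker gene list (horizontal axes), both in log2 units above the array median, with 1 point per array coloured by group. The GPI- arrays of each batch were high in both Bst2 and the plasmacytoid dendritic cell list. Wild-type arrays were above wild-type graft arrays on that list but overlapped them in Bst2. Arrays with a high erythroid list had high Prnp, and in batch 1 the knock-out GPI- arrays were low in both Bst1 and the neutrophil granule list.

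Ly6e, Ly6d and Plaur belong to the Ly6/uPAR family, whose members share a compact fold of disulphide-linked loops. Ly6e is an interferon-inducible protein of thymocytes and other leukocytes that influences the entry of several viruses. Ly6e was at 7.02, 6.94 and 7.10 in knock-out GPI- cells, against 6.35, 6.39 and 6.36 in knock-out GPI+ cells. The groups did not overlap, and the difference was 1.58-fold (log2 0.66 ± 0.12, adjusted p = 0.00031). It was at 7.58, 7.60, 7.72 and 7.89 in knock-out graft cells, against 7.05, 7.15 and 7.43 in wild-type graft cells and 7.46, 7.57, 7.26 and 7.69 in wild-type cells. Knock-out graft arrays were above all wild-type graft arrays (0.49 ± 0.11, adjusted p = 0.010) and overlapped the wild-type arrays (0.20 ± 0.11, adjusted p = 0.25). The call between the recipients was lost without wild-type graft replicate 1 or 2 (adjusted p = 0.062 and 0.055).

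The second Ly6e probe set was dimmer and moved more in the knock-out. It was at 3.69, 3.83 and 3.51 in knock-out GPI- cells, against 2.58, 2.57 and 2.56 in knock-out GPI+ cells (log2 1.11 ± 0.12, adjusted p = 8.7e-07 over all probe sets). Between the recipients it differed by 0.44 ± 0.12 (adjusted p = 0.031), close to the brighter probe set. The change in the knock-out was larger than that between the recipients by 0.66 ± 0.17 on this probe set (adjusted p = 0.010) and by 0.17 ± 0.17 on the brighter one (adjusted p = 0.53), so the 2 probe sets differ in this call. The genes most like Ly6e over the arrays were Slc38a1, an amino acid transporter (r = 0.94), H2-K1, an antigen-presenting molecule of class I (0.91), and Parp14, an interferon-stimulated gene (0.90).

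Ly6d marks lymphoid progenitors that commit to the B lineage. It was at 4.58, 4.86 and 4.43 in knock-out GPI- cells, against 3.79, 3.76 and 3.74 in knock-out GPI+ cells. The groups did not overlap, and GPI- cells were 1.82-fold higher (log2 0.86 ± 0.19, adjusted p = 0.0016). With the 3 alike knock-out GPI+ arrays averaged to 1 sample, Ly6d no longer passed (adjusted p = 0.061). In batch 2 it was at 5.99, 5.35, 6.11 and 5.91 in knock-out graft cells, 5.27, 6.09 and 5.72 in wild-type graft cells and 6.22, 6.33, 5.92 and 6.45 in wild-type cells. The groups overlapped, with differences of 0.15 ± 0.18 (adjusted p = 0.74) from the wild-type graft and -0.39 ± 0.17 (adjusted p = 0.14) from wild type. B cell genes rose in 11 of 15 cases in the knock-out and in 0 of 15 between the recipients. In knock-out graft against wild-type cells 0 of these genes rose and 4 fell. Their list mean was 3.47 to 3.75 in knock-out GPI- and 2.85 to 2.92 in knock-out GPI+ cells, and 3.76 to 4.52 in knock-out graft, 4.03 to 4.56 in wild-type graft and 4.35 to 4.72 in wild-type cells. Most like Ly6d were Cd79a, a chain of the B cell receptor (r = 0.93), Hnrnph3 (0.91) and Mylip (0.89). The part of B cells in the Ly6d values was not tested.

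Plaur encodes the urokinase receptor (uPAR), which focuses plasminogen activation at the surface of neutrophils and monocytes and works with integrins in their adhesion. It had the largest fall of the set in the knock-out. Plaur was at 3.94, 3.34 and 3.17 in knock-out GPI- cells, against 4.90, 4.90 and 4.88 in knock-out GPI+ cells. No array overlapped, and GPI- cells were 2.66-fold lower (log2 -1.41 ± 0.18, adjusted p = 3.1e-06). It was at 4.62, 4.86, 5.12 and 4.97 in knock-out graft cells, against 4.83, 4.19 and 4.27 in wild-type graft cells and 4.63, 4.36, 4.47 and 4.62 in wild-type cells. The direction was the opposite between the recipients but did not pass (0.46 ± 0.16, adjusted p = 0.10). It passed without wild-type graft replicate 1, the highest of its group (0.66, adjusted p = 0.020), or without knock-out graft replicate 1 (0.55, adjusted p = 0.046). The difference of the 2 changes was -1.87 ± 0.24 (adjusted p = 3.8e-05). The genes most like Plaur over the arrays were Acvrl1, a receptor of the TGF-beta family (r = 0.97), Timp2, an inhibitor of metalloproteinases (0.96), and Tmcc1 (0.96).

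Cd14 encodes the surface coreceptor that hands lipopolysaccharide to the TLR4 complex on monocytes and macrophages. It was the member called in opposite directions in 2 comparisons. Cd14 was at 1.06, 0.63 and 0.65 in knock-out GPI- cells, against 1.59, 1.55 and 1.63 in knock-out GPI+ cells. All GPI- arrays were lower, 1.75-fold on average (log2 -0.81 ± 0.17, adjusted p = 0.0011). It was at 1.92, 1.92, 1.86 and 2.28 in knock-out graft cells, against 1.55, 0.71 and 0.87 in wild-type graft cells and 1.01, 0.85, 0.79 and 0.91 in wild-type cells. Here the GPI- arrays were the higher ones, by 0.95 ± 0.16 over the wild-type graft (adjusted p = 0.00062) and by 1.11 ± 0.15 over wild type (adjusted p = 4.1e-05). The difference of the knock-out and recipient changes was -1.76 ± 0.24 (adjusted p = 4.9e-05). Cd14 was dim, at the 64.9th percentile of the array in knock-out GPI- cells and the 80.8th in knock-out graft cells, and its differences shrank to -0.34, 0.38 and 0.44 when 10 was added on the linear scale. All 3 still passed. The genes most like it were Cebpb, a transcription factor of myeloid cells (r = 0.97), Asah1, the lysosomal acid ceramidase (0.94), and Tlr2, a receptor for bacterial lipoproteins (0.93). Cebpb differed by -1.16 in the knock-out and 1.06 between the recipients.

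Bst1 encodes CD157, an ectoenzyme related to CD38 that acts on NAD and is displayed by neutrophils, monocytes and early B cells. It was at 2.31, 1.91 and 1.69 in knock-out GPI- cells, against 3.30, 3.31 and 3.29 in knock-out GPI+ cells. GPI- cells were 2.51-fold lower with no overlap (log2 -1.33 ± 0.17, adjusted p = 3.3e-06), and the second probe set fell by 1.31 ± 0.21 (adjusted p = 8.8e-05 over all probe sets). Bst1 was at 2.31, 2.91, 2.52 and 2.67 in knock-out graft cells, against 2.45, 2.17 and 2.27 in wild-type graft cells and 3.0, 2.72, 2.44 and 2.95 in wild-type cells. These groups overlapped, with differences of 0.31 ± 0.16 (adjusted p = 0.29) and -0.17 ± 0.14 (adjusted p = 0.52). The second probe set gave -0.09 ± 0.20 against the wild-type graft and -0.60 ± 0.18 against wild type, and the last passed (adjusted p = 0.048). The difference of the knock-out and recipient changes was -1.63 ± 0.23 (adjusted p = 7.1e-05). Closest to Bst1 over the arrays were Csf2ra, the alpha chain of the GM-CSF receptor (r = 0.96), Msrb1 (0.95) and Mgst1 (0.95).

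Cd52 encodes the short, heavily glycosylated CAMPATH-1 antigen of lymphocytes and monocytes. It was at 7.41, 7.22 and 7.42 in knock-out GPI- cells, against 8.36, 8.35 and 8.46 in knock-out GPI+ cells. It was 2.06-fold lower in GPI- cells with no overlap (log2 -1.04 ± 0.14, adjusted p = 1.1e-05). It was at 8.65, 8.97, 8.42 and 8.59 in knock-out graft cells, against 8.46, 8.34 and 8.09 in wild-type graft cells and 9.02, 8.48, 8.70 and 8.66 in wild-type cells. Neither difference of the knock-out graft passed, at 0.36 ± 0.13 (adjusted p = 0.12) and -0.06 ± 0.12 (adjusted p = 0.84). Wild-type graft arrays were all below the wild-type arrays (-0.42 ± 0.13, adjusted p = 0.14). The groups of that comparison did not overlap for 2 of the 9 genes, Cd52 and Prnp, and for 13.9% of all genes. The difference of the knock-out and recipient changes was -1.40 ± 0.20 (adjusted p = 7.3e-05). The genes most like Cd52 were Lst1 (r = 0.97), Tyrobp, a signalling adaptor of myeloid and NK cells (0.95), and Rnf115 (0.95).

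Plaur, Bst1, Cd52 and Cd14 moved with the myeloid marker lists in the knock-out. Of 17 neutrophil granule genes, 14 fell and 0 rose in knock-out GPI- cells, with a list mean of 6.75 to 6.96 against 7.99 to 8.05 in knock-out GPI+ cells. Of 15 monocyte and macrophage genes, 8 fell and 1 rose, with a list mean of 2.08 to 2.30 in knock-out GPI- against 2.78 to 2.81 in knock-out GPI+ cells. Of 9 eosinophil, basophil and mast cell genes, 5 fell and 0 rose. Their list mean was 1.00 to 1.22 in knock-out GPI- against 2.18 to 2.24 in knock-out GPI+ cells. In at least 1 group, 2 of these 9 were below the 40th percentile on all arrays. Lymphocyte lists went the other way in the knock-out, with 19 of 20 T and NK cell genes and 11 of 15 B cell genes higher and 0 lower. Cd52, which is also an antigen of lymphocytes, fell there. Between the recipients 6 neutrophil genes fell and 0 rose, while monocyte and macrophage genes went both ways, 7 higher and 5 lower. Eosinophil, basophil and mast cell genes also went both ways there, 4 higher and 2 lower. The neutrophil list was at 7.55 to 7.89 in knock-out graft, 7.90 to 8.08 in wild-type graft and 7.73 to 8.03 in wild-type cells. The monocyte and macrophage list was at 2.49 to 2.99 in knock-out graft, 2.67 to 2.79 in wild-type graft and 2.82 to 3.10 in wild-type cells, and C1qa and C1qc of that list were below the 40th percentile on all arrays of 2 groups. The part of these cells in the falls was not tested.

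Sema7a encodes semaphorin 7A, a GPI-anchored ligand of the integrin alpha-1 beta-1 and of plexin C1 that stimulates monocytes. It was at 0.64, 0.82 and 1.17 in knock-out GPI- cells, against 1.33, 1.25 and 1.44 in knock-out GPI+ cells. The groups did not overlap and the fall just passed (log2 -0.46 ± 0.17, adjusted p = 0.042). It was lost without knock-out GPI- replicate 1 or 2 or any 1 of the knock-out GPI+ replicates (adjusted p = 0.061 to 0.17), and with the GPI+ arrays averaged (adjusted p = 0.28). In batch 2 Sema7a was at 1.33, 1.65, 1.53 and 1.28 in knock-out graft cells, 1.81, 1.45 and 1.08 in wild-type graft cells and 1.64, 1.25, 1.51 and 1.35 in wild-type cells, with differences of 0.00 ± 0.16 and 0.01 ± 0.14. The second Sema7a probe set was under the 40th percentile on every array except wild-type replicate 4 (41.6th percentile), missed the filter and was not tested. Most like Sema7a over the arrays were Phactr2 (r = 0.89), Lmtk2 (0.86) and Zbtb34 (0.85).

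Prnp encodes the cellular prion protein, a copper-binding GPI-anchored protein of neurons and blood cells, erythroid cells included. It was at 1.97, 2.85 and 2.13 in knock-out GPI- cells, against 2.70, 2.52 and 2.43 in knock-out GPI+ cells. These overlapped and did not pass (-0.23 ± 0.21, adjusted p = 0.45), with replicate 2 of the GPI- cells above the other arrays. In batch 2 it was at 1.80, 1.59, 1.28 and 1.31 in knock-out graft cells, 1.93, 2.06 and 2.05 in wild-type graft cells and 2.73, 2.24, 2.31 and 3.06 in wild-type cells. On this brighter probe set the 3 groups did not overlap, with knock-out graft lowest and wild type highest. Knock-out graft cells were 2.13-fold below wild type (log2 -1.09 ± 0.18, adjusted p = 0.00035), and the second probe set fell by 0.69 ± 0.20 in the same comparison (adjusted p = 0.031 over all probe sets). The steps from wild-type graft to each neighbour did not pass, at -0.52 ± 0.20 for knock-out graft against wild-type graft (adjusted p = 0.12) and -0.57 ± 0.20 for wild-type graft against wild type (adjusted p = 0.18). On the second probe set the groups of both steps overlapped, at -0.39 ± 0.21 (adjusted p = 0.41 over all probe sets) and -0.30 ± 0.21 (adjusted p = 0.62).

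Erythroid genes stood in the same order of groups as Prnp in batch 2. Of 14 listed genes 13 fell and 0 rose in knock-out graft against wild-type cells, and 7 fell between the recipients. Their mean was 1.81 to 3.03 in knock-out graft, 3.09 to 3.56 in wild-type graft and 3.58 to 4.16 in wild-type cells. In knock-out GPI- cells it was 3.32, 4.52 and 3.73 on replicates 1, 2 and 3, against 3.81 to 3.84 in knock-out GPI+ cells, and replicate 2 was the array with the highest Prnp of the batch. The genes most like Prnp were Gch1, an enzyme of tetrahydrobiopterin synthesis (r = 0.96), Tspan8 (0.96) and Fn3k, a protein repair kinase (0.95). The part of erythroid cells in the Prnp values was not tested.

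The difference between GPI- and GPI+ cells was not the same in the knock-out and the recipients for 4 of the 9 genes, Plaur, Cd14, Bst1 and Cd52, by a test of the difference itself. All 4 differences were negative, from -1.40 to -1.87, and 19.0% of all genes passed this test, 9.04% as positive and 9.96% as negative. These comparisons share no array but lie in different batches, so batch and model cannot be told apart. The differences for Bst2, Ly6e, Ly6d, Prnp and Sema7a did not pass (adjusted p = 0.062 to 0.54).

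**Figure D4:**
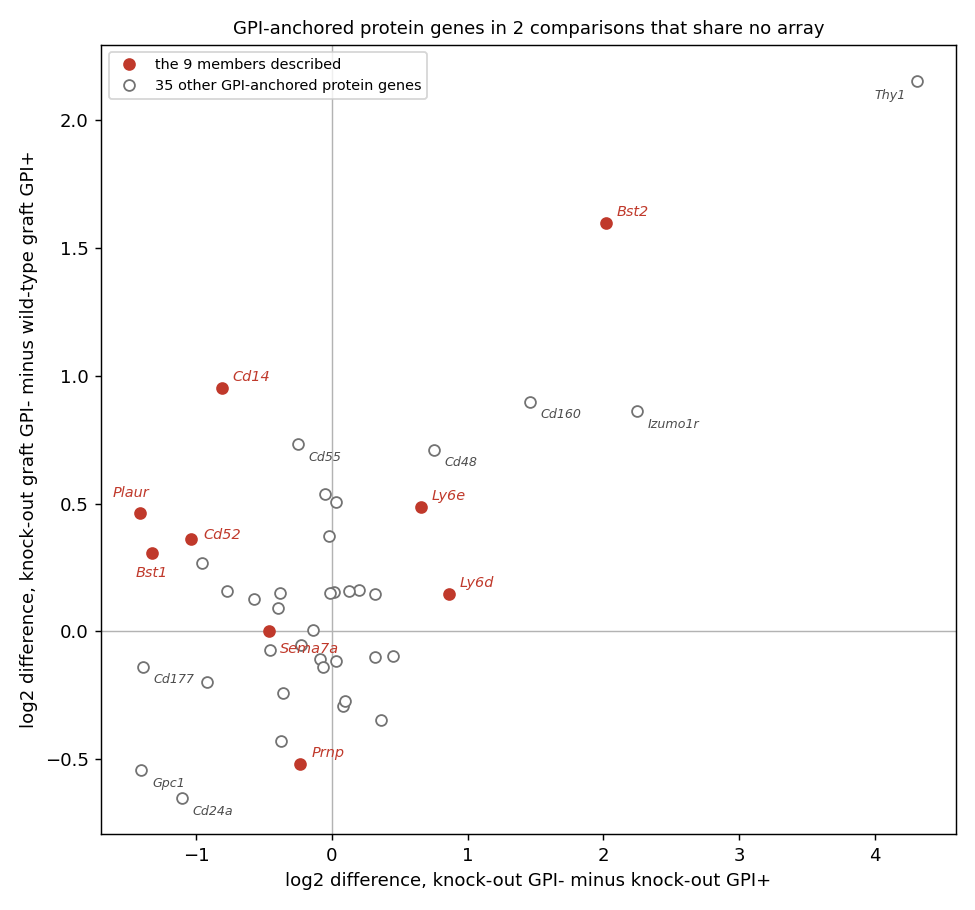
Log2 difference in the knock-out (horizontal axis) and between the recipients (vertical axis) for the 9 genes (filled) and for 35 other GPI-anchored protein genes (open). Bst2 and Ly6e were higher in both, next to Thy1, Izumo1r, Cd160 and Cd48, while Cd14 was lower in the knock-out (-0.81) and higher between the recipients (0.95).

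A further list of GPI-anchored proteins and a list of binding partners were set beside the 9 genes. Of 51 listed other GPI-anchored protein genes 35 were tested. In the knock-out 4 rose and 7 fell, with a median of -0.05, close to that of all genes. The rises were Thy1, a T cell antigen (log2 4.31 ± 0.26, adjusted p = 1.9e-10), Izumo1r, a folate receptor family protein of regulatory T cells (2.25 ± 0.22), Cd160, a receptor of NK and T cells (1.46 ± 0.22), and Cd48, a ligand of the SLAM family (0.75 ± 0.14). The largest falls were Gpc1, a glypican (-1.41 ± 0.18), Cd177, a neutrophil antigen (-1.39 ± 0.18), and Cd24a, a sort antigen (-1.11 ± 0.15). Between the recipients 6 rose and only Cd24a fell (-0.65 ± 0.14). Thy1 (2.16 ± 0.25), Cd160 (0.90 ± 0.21), Izumo1r (0.86 ± 0.21) and Cd48 (0.71 ± 0.13) rose here too, with Cd55, a complement regulator (0.73 ± 0.16), and Nt5e, the enzyme CD73 that makes adenosine (0.51 ± 0.15). Against wild type 7 rose and 5 fell, and in wild-type graft against wild-type cells Gpc1 rose (0.81 ± 0.17) and none fell.

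The risen lymphocyte genes stood beside a rise of T and NK cell markers, of which 19 of 20 rose in the knock-out and 17 of 20 between the recipients. Their list mean was 3.16 to 3.34 in knock-out GPI- and 0.36 to 0.44 in knock-out GPI+ cells, and 1.32 to 2.20 in knock-out graft, 0.46 to 0.58 in wild-type graft and 0.58 to 0.93 in wild-type cells. Cd4 and Cd6 of that list were below the 40th percentile on all arrays of at least 1 group. The part of these cells was not tested.

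Of 18 listed ligands, coreceptors and relatives of the 9 proteins 16 were tested. In the knock-out 9 fell and 3 rose, with a median of -0.41, and between the recipients 0 changed in limma's fit. The falls included partners of CD14, namely Tlr4, the signalling receptor for lipopolysaccharide (log2 -0.97 ± 0.15), Ly96, its accessory protein MD-2 (-0.65 ± 0.13), and Lbp, the lipopolysaccharide carrier (-1.55 ± 0.16). Itgam, the integrin chain that binds uPAR on myeloid cells, fell by 1.62 ± 0.19, and Plxnc1, a receptor of semaphorin 7A, by 1.02 ± 0.12. Serpinb2, an inhibitor of urokinase, differed by -1.27 ± 0.28 (adjusted p = 0.0016) but lay below the 40th percentile on all knock-out GPI- arrays, so that value is approximate. The 3 rises were Itgb1, the beta-1 chain of the integrin that binds semaphorin 7A (0.55 ± 0.15, adjusted p = 0.0099), Siglecg, an inhibitory lectin of B cells (0.53 ± 0.16, adjusted p = 0.016), and Stip1, a cochaperone that binds the prion protein (0.48 ± 0.17, adjusted p = 0.038). Itga1, the alpha-1 chain of the same integrin, fell by 0.41 ± 0.14 (adjusted p = 0.035). Against wild type, knock-out graft cells had lower Siglecg (-0.70 ± 0.14, adjusted p = 0.0019), and higher Itga1 (0.55 ± 0.12, adjusted p = 0.0051).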

How the data were processed

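Total RNA of sorted mouse bone marrow was measured on 17 Affymetrix arrays of 45101 probe sets. The deposited values were read as log10, since those of spiked controls rose by 0.96 to 1.26 per log10 of concentration (group means), and the base the authors used is not stated in the labels. Their range is 0 to 3.86 (batch 1) or 3.90 (batch 2). Fold changes of bright genes may be overstated where that slope is above 1, and values flatten towards 0. The sorted deposited values are identical within each batch (largest difference 0), so they were quantile-normalized per batch. The submitters' processing notes name GCOS and give it no role. Per the labels' protocols, RNA input differed between the experiments.

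Values were divided by the log10 of 2 and centred on the array median. With 64 controls removed, the filter on dim values required the 40th percentile of an array on 3 or more arrays (32426 probe sets passed). Each gene was represented by its brightest passing probe set of 1 symbol. limma 3.58.1 (lmFit, eBayes with trend, R 4.3.3) fitted 5 group means over 17 arrays. Benjamini-Hochberg adjustment ran over 14245 genes, or over the kept probe sets for second probe sets. The fit was tested on simulated data. Same-numbered arrays of different groups did not deviate together (r of -0.04 to -0.02 in batch 1, -0.18 to 0.10 in batch 2), so the fit has no replicate block. Exact permutation tests were used for single genes. The members, lists and motifs were chosen with earlier results of these data known. Named were all 9 genes, the largest changes among passing list genes (Itgb1, Stip1 and the knock-out values of Siglecg and Itga1 were added after their values were seen), and the 3 genes with the highest Pearson r to a member. Alternatives were 2 other normalizations, an offset of 10, other filters, probe set summaries, batch-only fits, no trend, a replicate block, averaged knock-out GPI+ arrays and each replicate left out. The number of arrays limits the precision.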

Additional observations from a re-analysis of the deposited data

Results flagged for a closer look

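The change from GPI+ to GPI- cells differed between the knock-out and the recipients, by the interaction term of limma's fit, for Plaur (log2 difference of the changes -1.87), Cd14 (-1.76), Bst1 (-1.63) and Cd52 (-1.40). In groups of 4 arrays, 1 array stood apart from its group by Dixon's ratio in 2 of 26 probe set and group pairs. Knock-out graft replicate 4 was high for Cd14 (2.28 against 1.86 to 1.92, ratio 0.844), and replicate 1 of the same group was high on the second Prnp probe set (0.74 against 0.40 to 0.45, ratio 0.842). Chance flags about 1 in 20 groups, and no cause was tested.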

How the results depend on the processing

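The number of the 9 genes that passed was 8 in the knock-out, 3 between the recipients, 3 in knock-out graft against wild-type cells, 0 in wild-type graft against wild-type cells and 4 for the difference of changes. Under the alternatives it stayed within 6 to 8, 2 to 4, 3, 0 and 4 to 6. The replicate number as a block left these counts at 8, 3, 3, 0 and 4, but only 45 of all genes passed in wild-type graft against wild-type cells, where 120 passed without it. That count was 59 without the intensity trend and 21 to 89 with 1 replicate left out, with 21, 55 and 77 without wild-type graft replicates 1, 2 and 3 and 29, 60 and 57 without wild-type replicates 1, 2 and 4. Averaging the knock-out GPI+ arrays left 1652 of 4206 genes in the knock-out and 978 of 2707 for the difference of changes. Between the recipients 680 to 1311 genes passed with 1 replicate left out, against 1053, with 680 and 684 without wild-type graft replicates 2 and 3. The 18 called changes of the 9 genes kept their sign in all 333 refits, and 11 missed the threshold (Ly6d and Ly6e as given above, and Sema7a, also with no filter or no trend, adjusted p = 0.053 and 0.052). Of the 27 that did not pass, 7 refits did and 18 had the other sign. Ly6d passed for the difference of changes without wild-type graft replicate 1 (0.92), without knock-out graft replicate 3 (0.80) or with quantile normalization over all arrays (0.78), and Ly6e with the mean of its probe sets (0.42). Sema7a did so without wild-type graft replicate 1 (-0.64). An offset of 10 shrank the changes of dim genes by over 1.5 times, to 1.31, 0.97 and 0.93 for Bst2, -0.88 for Bst1 and -0.19 for Sema7a in the knock-out and -0.55 for Prnp against wild type, all still passing. The offset itself compresses dim values, and for the rest the cause was not tested. No alternative was added after seeing the files.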
